A study of Mus musculus with 10 samples.

Results

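The comparison described here is that of untreated *Max*-null ESCs in 2 media, 2i+LIF against LIF+serum, before *Max* expression was ablated. Its members were taken by their sample labels and are 3 of the 10 arrays of the series: 1 array of untreated cells in 2i+LIF and 2 arrays of untreated cells in LIF+serum, one of them labelled as a second version. The study used Affymetrix mouse genome arrays to follow germ cell genes after loss of MAX, the dimerization partner of MYC. All cells were male mouse embryonic stem cells of strain 129SV in which both copies of *Max* were disrupted and a *Max* cDNA was expressed from the *Rosa26* locus under the tetracycline-off system, so that these 3 samples, which received no doxycycline (Dox), still had MAX from the transgene. The 2i+LIF sample had been kept for 6 days with LIF and the inhibitors PD0325901, which blocks MEK, and CHIR99021, which blocks GSK3β, and the LIF+serum samples were in conventional ESC medium. Neither label says whether the LIF+serum arrays came from separate cultures, so their spread may be technical.

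MEK is the kinase that activates ERK, which carries the signal of FGF4 in mouse ESCs and primes them for differentiation. GSK3β phosphorylates β-catenin for degradation, so that its inhibition acts like a WNT signal and relieves repression of pluripotency genes by TCF7L1. ESCs in 2i+LIF are known for a uniform naive state and for low DNA methylation, whereas ESCs in serum hold a mixture of naive cells and cells that have begun to express epiblast and lineage genes. The medium also differs in serum itself, a source of BMP signals, lipids and growth factors. Since each array averages a whole culture, a lower value can mean fewer cells that express a gene or less RNA per cell, and these cannot be told apart.

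The values are RMA signals on the log2 scale, with 1 unit standing for a doubling, after a further quantile normalization of all 10 arrays. As deposited, the median signal was 5.14 in 2i+LIF, against 5.32 and 5.26 in LIF+serum, and over all probe sets the 2i+LIF array lay 0.19 and 0.13 below the LIF+serum arrays at the median. After quantile normalization these shifts were 0.06 and 0.01, also downwards. The arrays in 2i+LIF may have been normalized apart from those in LIF+serum, and medium and array set cannot be told apart. The median size of the difference over 45037 probe sets was 0.41 and 0.36 between the 2i+LIF array and the LIF+serum arrays 1 and 2, and 0.34 between the LIF+serum arrays themselves. At least 2-fold apart were 8.23% of probe sets higher and 5.66% lower in 2i+LIF against array 1, 5.58% higher and 5.29% lower in 2i+LIF against array 2, and 6.28% higher and 3.13% lower in LIF+serum array 2 against array 1. The difference between the 3' and 5' actin probe sets, a sign of RNA integrity, was 0.78 in 2i+LIF, against 0.41 and 0.88 in LIF+serum.

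With limma on these 3 arrays (1 residual degree of freedom, the lone 2i+LIF array being assumed to vary like the LIF+serum arrays), no probe set passed an adjusted p of 0.05 in either direction. At an unadjusted p under 0.05 there were 1972 higher and 1695 lower, and the lowest adjusted p was 0.0892. A limma fit over all 10 arrays, which takes the spread from the Dox course in LIF+serum, called 1561 probe sets higher (3.47%) and 1263 lower (2.80%) in 2i+LIF. The LIF+serum level in that fit is read at day 0 from a straight line in days of Dox, not from the untreated arrays alone. For *Gm7969* it gave a difference of 4.38, against a mean of 4.06 from the untreated arrays. The spread in that fit is the departure of single arrays from that line, not a spread of repeated cultures. A curved response to Dox widens it, and the 2i+LIF array adds nothing to it, so p-values from that fit are descriptions. Because the test on 3 arrays passed nothing, genes are described below by their values, and "called" means at least 2-fold above or at least 2-fold below both LIF+serum arrays. By this measure 1350 probe sets stood higher (3.00%) and 1044 lower (2.32%) in 2i+LIF. With 1 probe set a gene, the counts were 607 higher (3.34%) and 560 lower (3.08%) of 18193 genes, and these 2 percentages are the background for every gene list below. Against 1 LIF+serum array alone more genes pass by construction, and counts against a single array are given below for some lists only. Other lists changed as well. Against array 1 alone, 5 collagen and basement membrane genes were higher (0 against both arrays), and 5 G1 genes (1 against both). Of the WNT pathway members, 3 were higher and 5 lower against array 1 alone (0 and 2 against both). By position alone, 32.3% of genes lay above and 39.6% below both LIF+serum arrays, and in the fit over all 10 arrays 3.68% of genes passed as higher and 3.34% as lower. Higher calls made up 56.4% of the called probe sets, and 46.2% on the values as deposited. At the edge of the measure, *Fbxo15* lay 1.00 and 1.14 above the LIF+serum arrays and was counted, whereas *Capsl* at 0.9998 and 1.25 was not. At the lower edge, *Hbegf* at -1.08 and -1.0017 was counted and *Slc6a15* at -0.9999 and -1.50 was not.

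**Figure D1:**
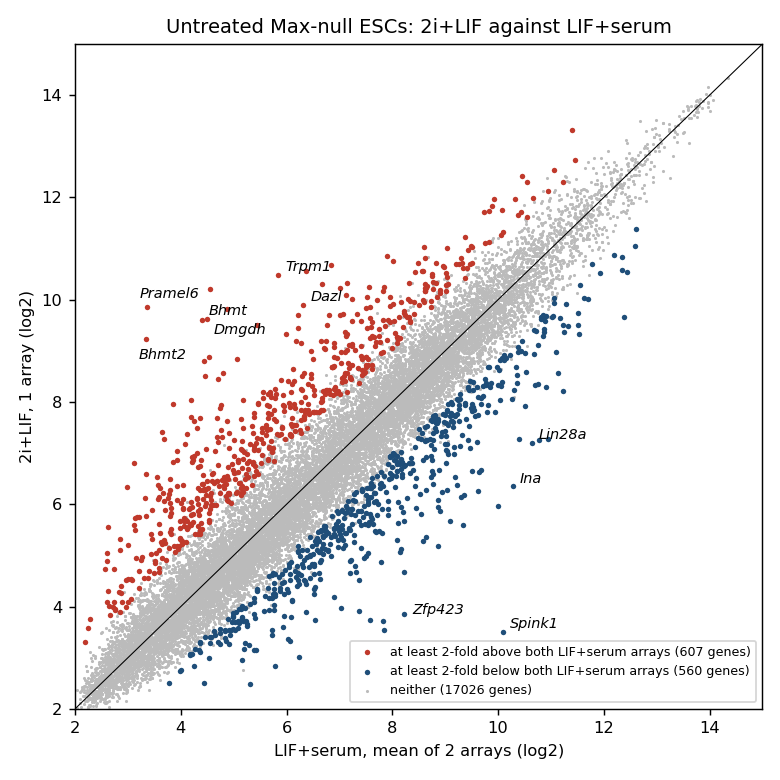
Signal of 18193 genes in untreated *Max*-null ESCs, with the 2i+LIF array on the vertical axis and the mean of the 2 LIF+serum arrays on the horizontal axis (both log2). Red and blue points are the 607 genes at least 2-fold above and the 560 genes at least 2-fold below both LIF+serum arrays, and most genes lie along the line of equal signal.

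The genes farthest above both LIF+serum arrays were *Pramel6*, *Bhmt2*, *Bhmt*, *Dmgdh*, *Crxos*, *Pdha2*, *Trpm1*, *Pkd2l1*, *Gm7969* and *2510009E07Rik*. *Pramel6*, a PRAME family gene of the preimplantation embryo and naive ESCs, had 9.85 in 2i+LIF, against 3.19 and 3.52 in LIF+serum. Its LIF+serum signals lay below 3.88, the lower quartile of each array, so no fold is given. *Bhmt2*, which encodes a methyltransferase that makes methionine from homocysteine and S-methylmethionine, had 9.23 in 2i+LIF, against 3.12 and 3.58 in LIF+serum. These too lay below the lower quartile, and for both genes the LIF+serum arrays lay close together. *Bhmt*, whose enzyme uses betaine as methyl donor for the same step, had 9.60 in 2i+LIF, against 4.37 and 4.43 in LIF+serum. *Dmgdh*, the mitochondrial dehydrogenase of the dimethylglycine that BHMT releases, had 9.62 in 2i+LIF, against 4.46 and 4.53 in LIF+serum. In the fit over all 10 arrays the adjusted p was 0.000104 for *Pramel6*, 8.77e-05 for *Bhmt2* and *Bhmt* and 9.09e-05 for *Dmgdh*, with differences between 5.10 and 6.48.

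*Bhmt*, *Bhmt2* and *Dmgdh* are neighbours on chromosome 13 in the RefSeq annotation of GRCm38.p6. *Bhmt2* on the minus strand and *Dmgdh* on the plus strand start 133 bases apart and run away from each other, so 1 window of 300 bases holds both starts. The windows of 4 genes that stood far higher in 2i+LIF are shown because genes of DNA methylation also stood apart between the media (below). Each runs 5′ to 3′ on the strand of the gene, from 250 bases before its start to 50 after, and capitals mark each CG dinucleotide, the unit that mammalian DNA methyltransferases act on.
Dmgdh (chr13:93674186-93674485, plus strand): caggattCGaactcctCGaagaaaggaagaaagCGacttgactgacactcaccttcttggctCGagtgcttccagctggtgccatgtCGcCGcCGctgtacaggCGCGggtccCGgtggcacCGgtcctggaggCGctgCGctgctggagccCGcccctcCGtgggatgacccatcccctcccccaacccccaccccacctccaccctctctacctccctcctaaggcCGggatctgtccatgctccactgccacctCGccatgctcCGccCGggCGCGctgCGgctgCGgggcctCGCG
Bhmt (chr13:93637709-93638008, minus strand): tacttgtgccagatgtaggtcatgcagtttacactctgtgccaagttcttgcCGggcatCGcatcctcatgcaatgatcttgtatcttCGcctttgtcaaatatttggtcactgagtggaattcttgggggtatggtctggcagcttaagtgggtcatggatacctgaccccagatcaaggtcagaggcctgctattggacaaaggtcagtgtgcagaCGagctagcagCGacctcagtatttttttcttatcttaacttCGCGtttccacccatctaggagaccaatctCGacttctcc
Pramel6 (chr2:87506315-87506614, plus strand): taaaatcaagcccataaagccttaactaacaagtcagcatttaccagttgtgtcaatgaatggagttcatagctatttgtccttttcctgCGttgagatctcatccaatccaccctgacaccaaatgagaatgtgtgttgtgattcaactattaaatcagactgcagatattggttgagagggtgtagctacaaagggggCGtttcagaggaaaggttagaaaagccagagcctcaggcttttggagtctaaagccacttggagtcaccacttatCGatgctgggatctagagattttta
Dazl (chr17:50293571-50293870, minus strand): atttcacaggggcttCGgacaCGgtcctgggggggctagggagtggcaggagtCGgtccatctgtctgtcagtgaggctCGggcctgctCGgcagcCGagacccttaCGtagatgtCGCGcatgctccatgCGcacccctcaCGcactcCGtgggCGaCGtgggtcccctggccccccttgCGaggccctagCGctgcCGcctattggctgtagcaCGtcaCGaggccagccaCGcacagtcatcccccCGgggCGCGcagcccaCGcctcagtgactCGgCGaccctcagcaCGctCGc
The *Dmgdh* window, shared with *Bhmt2*, held 25 CG and that of *Dazl*, a germ cell gene described below, held 28, counts that 18.4% and 14.2% of the 32851 RefSeq windows reach or exceed. The *Bhmt* window held 8 and the *Pramel6* window 3, against a median of 7 over all windows. These genes thus had starts both rich and poor in CG.

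Among the other genes at the top, *Trpm1*, a cation channel known from melanocytes and retina, had 10.49 in 2i+LIF, against 5.38 and 6.29 in LIF+serum. *Pdha2*, the testis form of the pyruvate dehydrogenase E1 α subunit, had 9.83 in 2i+LIF, against 4.22 and 5.53 in LIF+serum. *Pkd2l1*, a channel of the polycystin family, had 8.81 in 2i+LIF, against 4.72 and 4.17 in LIF+serum. Each of the 3 was 17.0-fold or more above both LIF+serum arrays. *Crxos*, an oocyte and embryo homeobox gene, stood at 10.20 in 2i+LIF, against 3.65 and 5.46 in LIF+serum, so its LIF+serum arrays differed between themselves by 1.81.

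The genes farthest below both LIF+serum arrays were *Spink1*, *Zfp423*, *Sox11*, *2010204K13Rik*, *Pax6*, *Ina*, *Krt17*, *Esrp1*, *Rasgrp2* and *Gap43*. *Spink1*, a secreted trypsin inhibitor, had 3.51 in 2i+LIF, against 10.23 and 9.95 in LIF+serum, the 2i+LIF signal being below the lower quartile of its array. *Zfp423*, a zinc finger cofactor of BMP-activated SMADs, had 3.85 in 2i+LIF, against 8.21 and 8.22 in LIF+serum. *Esrp1*, an epithelial splicing regulator, had 5.19 in 2i+LIF, against 8.96 and 8.78 in LIF+serum. In each of these the LIF+serum arrays lay no more than 0.28 apart, and 4 of the 10 genes (*Sox11*, *Pax6*, *Ina* and *Gap43*) are known from neurons or their precursors. *Ina*, the neuronal intermediate filament α-internexin, had 6.35 in 2i+LIF, against 10.17 and 10.38 in LIF+serum, and its 3 probe sets all lay below both. *Gap43*, a growth cone protein, had 3.90 in 2i+LIF, against 7.36 and 7.37 in LIF+serum. The grouping of these genes was noticed after their values were seen. For *Krt17* the second probe set lay on the other side, above both LIF+serum arrays.

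**Figure D2:**
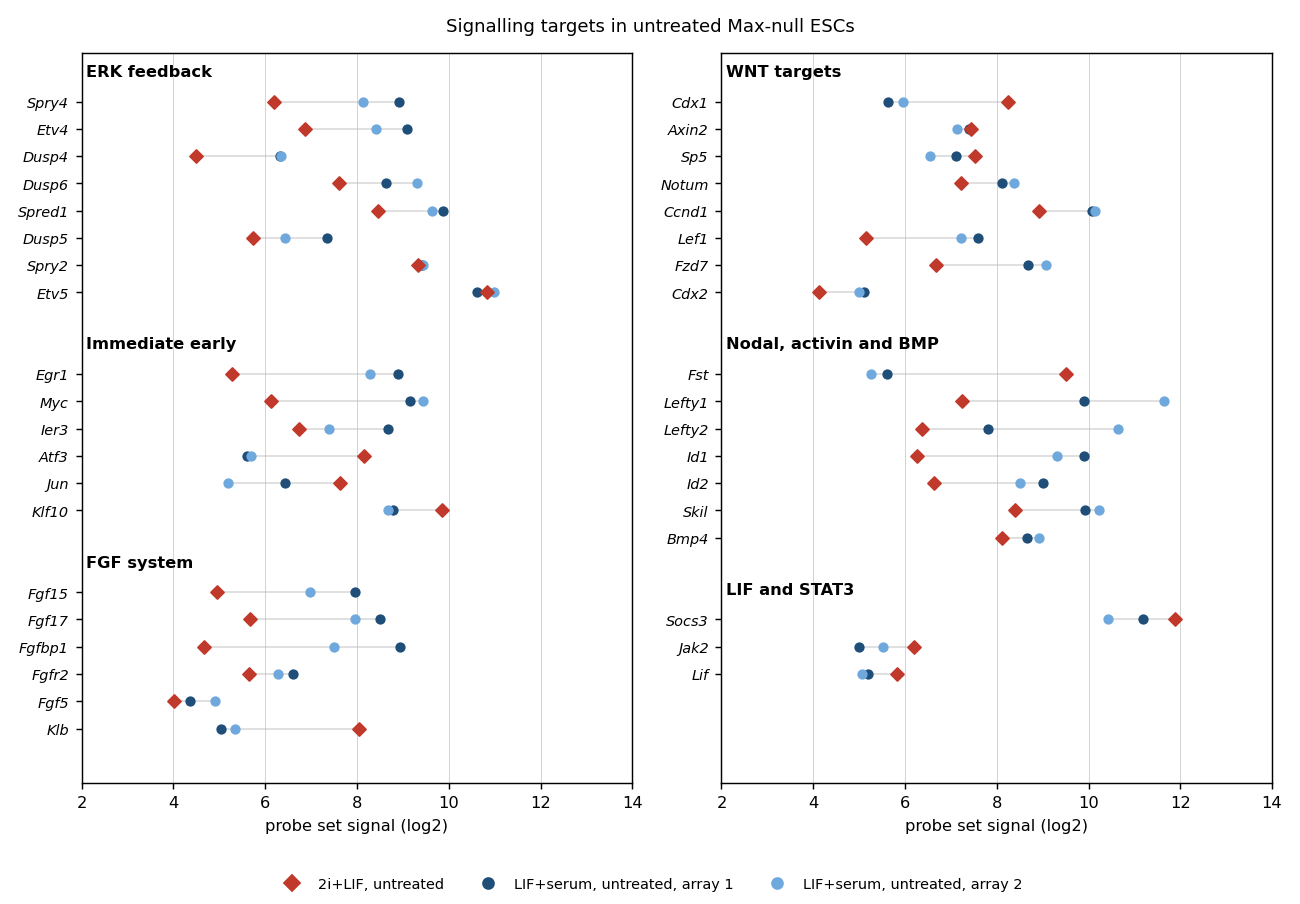
Probe set signal (log2) of named genes of the ERK, immediate early, FGF, WNT, Nodal, BMP and LIF lists, with red diamonds for the 2i+LIF array and dark and light blue circles for LIF+serum arrays 1 and 2. The diamond lies left of both circles for most ERK feedback genes, whereas *Axin2*, *Spry2* and *Etv5* overlap.

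Several genes that ERK induces to limit its own signal stood lower in 2i+LIF. Of 16 ERK feedback genes, 5 were called lower and none higher, and 11 lay below both LIF+serum arrays, with a median difference of -0.48 against -0.05 over all genes. With each array centred on its median, 3 were called lower and the median difference was -0.31. *Spry4*, an inhibitor of receptor tyrosine kinase signalling, had 6.20 in 2i+LIF, against 8.91 and 8.14 in LIF+serum. *Etv4*, an ETS factor downstream of FGF, had 6.86 in 2i+LIF, against 9.09 and 8.42 in LIF+serum. *Dusp6*, the cytoplasmic ERK phosphatase, had 7.60 in 2i+LIF, against 8.64 and 9.30 in LIF+serum. These 3 and *Spred1* passed the fit over all 10 arrays, with adjusted p between 0.00281 and 0.0458. *Dusp4*, a nuclear phosphatase, was called lower at 4.50 in 2i+LIF, against 6.33 and 6.35 in LIF+serum, with an adjusted p of 0.0685 there. Not every feedback gene was apart: *Spry2* had 9.33 in 2i+LIF, against 9.43 and 9.45 in LIF+serum, and *Etv5* at 10.84 lay between its LIF+serum values of 10.61 and 11.00.

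The immediate early genes, transcribed within minutes of a growth factor, divided. *Egr1*, which ERK drives through ELK1 and SRF, had 5.28 in 2i+LIF, against 8.89 and 8.28 in LIF+serum, and *Myc* had 6.13 in 2i+LIF, against 9.16 and 9.44 in LIF+serum. Both were called lower and passed the fit over all 10 arrays (adjusted p = 0.0277 and 0.0153). *Atf3*, also a target of the stress response, had 8.15 in 2i+LIF, against 5.60 and 5.69 in LIF+serum, and *Jun* and *Klf10* were called higher as well. Of 21 genes, 3 were thus called higher and 2 lower, with a median difference of -0.01, whose sign changed with the scaling. In the FGF list, the ligands *Fgf15* and *Fgf17* and the carrier *Fgfbp1* were the 3 called lower of 12. *Fgf17* had 5.66 in 2i+LIF, against 8.50 and 7.95 in LIF+serum. *Fgfbp1*, which releases FGFs from the matrix, had 4.67 in 2i+LIF, against 8.94 and 7.50 in LIF+serum. *Klb*, the co-receptor β-Klotho, was the 1 called higher, with 8.04 in 2i+LIF, against 5.04 and 5.33 in LIF+serum. The receptor *Fgfr2* stood at 5.66 in 2i+LIF, against 6.61 and 6.28 in LIF+serum, and was not called.

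WNT targets did not lie on one side. Of 22 measured, 1 was called higher and 3 lower, with a median difference of 0.00 whose sign changed with the scaling. *Cdx1*, a homeobox gene that β-catenin activates directly, had 8.25 in 2i+LIF, against 5.62 and 5.95 in LIF+serum (adjusted p = 0.00269 over all 10 arrays). *Axin2*, the common reporter of β-catenin activity, had 7.44 in 2i+LIF, against 7.39 and 7.14 in LIF+serum, and *Sp5* had 7.52 in 2i+LIF, against 7.12 and 6.55 in LIF+serum. Neither of these was beyond 2-fold of either LIF+serum array. *Lef1*, a partner of β-catenin and itself a target, had 5.14 in 2i+LIF, against 7.60 and 7.23 in LIF+serum. *Fzd7*, a WNT receptor, had 6.67 in 2i+LIF, against 8.68 and 9.07 in LIF+serum. *Ccnd1*, a target of both WNT and ERK signalling, stood at 8.91 in 2i+LIF, against 10.08 and 10.15 in LIF+serum. Of 28 ligands, receptors and other pathway members, *Fzd7* and *Fzd2* were called lower and none higher. *T* and *Tcf7* were not measured by a probe set of 1 symbol.

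Promoter windows of the called ERK and WNT genes were searched on both strands for the ETS site (CCGGAAGT or ACCGGAAG, which overlap) and the TCF/LEF site (CTTTGAA or CTTTGAT). RefSeq windows were at hand for 2 called ERK feedback genes, *Dusp6* and *Spred1*, and for 2 called WNT targets, *Lef1* and *Fzd7*, and none of the 4 held its site. Over all 27025 RefSeq genes with a window, 5.52% held the ETS site and 9.88% the TCF/LEF site. Among all measured ERK feedback genes 0 of 12 held the ETS site, and among WNT targets 4 of 14 held the TCF/LEF site, *Sp5*, *Sp8*, *Dkk1* and *Tnfrsf19*. A match is a description of the letters of the window and not evidence of binding.

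**Figure D3:**
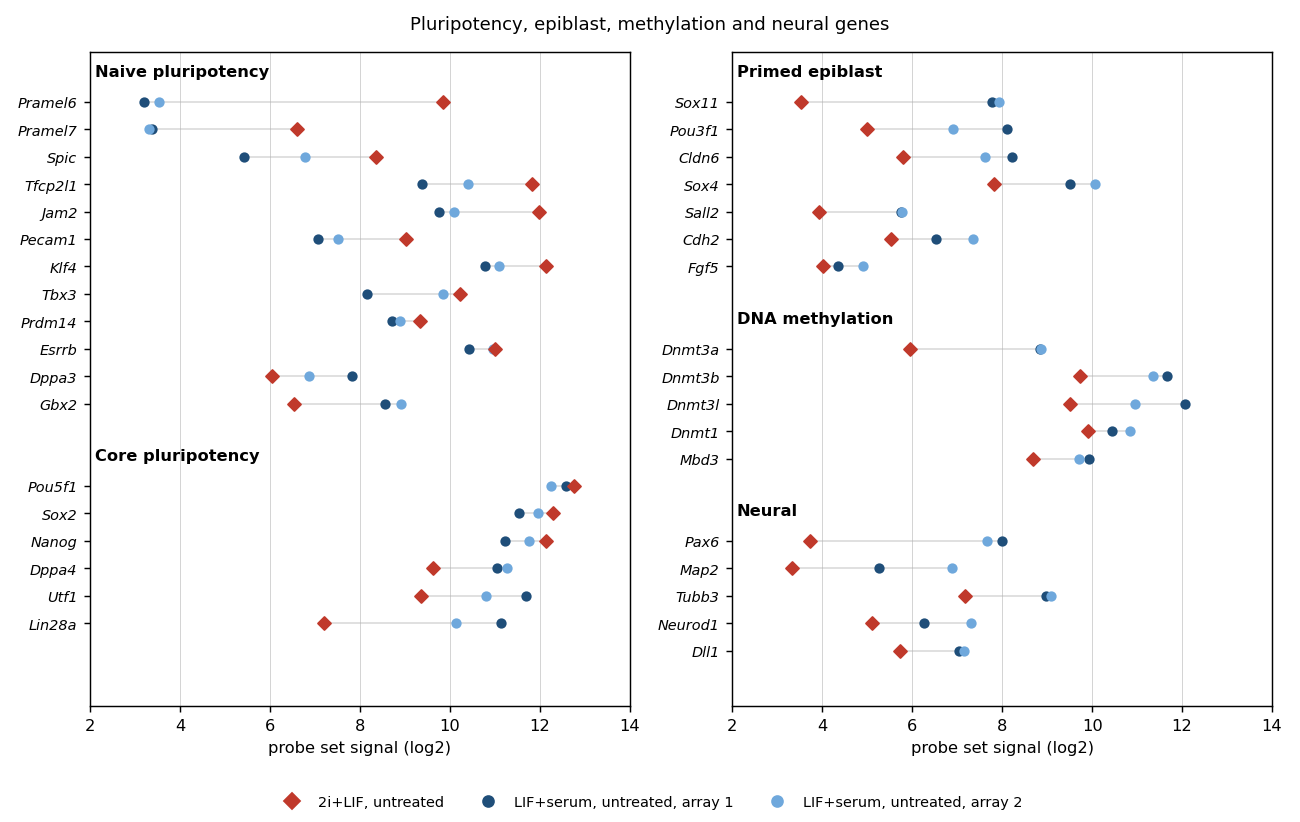
Probe set signal (log2) of named pluripotency, epiblast, DNA methylation and neural genes, with red diamonds for the 2i+LIF array and dark and light blue circles for LIF+serum arrays 1 and 2. *Pramel6* and *Pramel7* lie far right of both LIF+serum arrays, and the primed, *Dnmt3* and neural genes lie left of them.

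Markers of the labelled cell type were high in all 3 samples. *Pou5f1*, which encodes OCT3/4, had 12.77 in 2i+LIF, against 12.59 and 12.26 in LIF+serum. *Nanog* had 12.13 in 2i+LIF, against 11.22 and 11.77 in LIF+serum, and *Sox2* had 12.29 in 2i+LIF, against 11.54 and 11.95 in LIF+serum. None of these was 2-fold apart, although each lay above both LIF+serum arrays. Of 17 core pluripotency genes, 3 were called lower and none higher: *Lin28a*, *Utf1* and *Dppa4*. *Lin28a*, which blocks let-7 maturation, had 7.20 in 2i+LIF, against 11.14 and 10.13 in LIF+serum, and *Utf1*, a chromatin protein of ESCs, had 9.37 in 2i+LIF, against 11.69 and 10.81 in LIF+serum. All 3 passed the fit over all 10 arrays.

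Naive pluripotency genes, which are active in the preimplantation epiblast, included *Pramel6*, the gene farthest above both LIF+serum arrays. Of 22 measured, 8 were called higher (*Pramel6*, *Pramel7*, *Spic*, *Jam2*, *Tfcp2l1*, *Pecam1*, *Klf4* and *Fbxo15*) and 1 lower (*Gbx2*), and the median difference was 0.69 against -0.05 over all genes. *Tfcp2l1*, a factor downstream of both LIF and GSK3 inhibition, had 11.83 in 2i+LIF, against 9.38 and 10.40 in LIF+serum, but 1 of its 3 probe sets lay below both. *Klf4*, a target of STAT3, had 12.13 in 2i+LIF, against 10.78 and 11.10 in LIF+serum. *Jam2*, a junction protein, had 11.98 in 2i+LIF, against 9.76 and 10.10 in LIF+serum, and all 5 probe sets lay above both. *Esrrb*, a direct target of TCF7L1 repression, was close at 11.01 in 2i+LIF, against 10.42 and 10.95 in LIF+serum. *Tbx3* was 10.23 in 2i+LIF, against 8.16 and 9.85 in LIF+serum, so it was far from LIF+serum array 1 only. *Gbx2* went the other way, with 6.54 in 2i+LIF, against 8.56 and 8.92 in LIF+serum. The list as a whole differed between the LIF+serum arrays as well, array 2 being higher by 0.39 at the median.

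Primed epiblast genes gave the largest list median in the downward direction. Of 24 measured, 9 were called lower and none higher, 21 lay below both LIF+serum arrays, and the median difference was -1.13. Against array 2 alone 14 were lower, and against array 1 alone 13. *Sox11*, a neural and epiblast factor, had 3.53 in 2i+LIF, against 7.77 and 7.92 in LIF+serum, and all 6 of its probe sets lay below both, with a mean difference of -1.77 over them. *Pou3f1*, the POU factor OCT6 of epiblast and neural commitment, had 4.99 in 2i+LIF, against 8.10 and 6.91 in LIF+serum. *Sox4* had 7.81 in 2i+LIF, against 9.51 and 10.06 in LIF+serum. Of the 24, 10 passed the fit over all 10 arrays, all of them lower. *Fgf5*, the usual epiblast marker, was weak in every sample, with 4.01 in 2i+LIF, against 4.35 and 4.91 in LIF+serum.

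The genes for de novo DNA methylation stood lower. *Dnmt3a* had 5.94 in 2i+LIF, against 8.84 and 8.87 in LIF+serum, which is 7.48 and 7.60-fold lower. *Dnmt3b* had 9.74 in 2i+LIF, against 11.67 and 11.35 in LIF+serum. *Dnmt3l*, their catalytically inactive cofactor, had 9.50 in 2i+LIF, against 12.07 and 10.95 in LIF+serum. All 3 passed the fit over all 10 arrays (adjusted p = 0.000799, 0.0112 and 0.0171), and with *Mbd3* they were the 4 called lower of 15 genes of DNA methylation, none being higher. *Dnmt1*, the maintenance enzyme, stood at 9.90 in 2i+LIF, against 10.45 and 10.84 in LIF+serum, below both and within 2-fold. *Prdm14*, a repressor of the *Dnmt3* genes, had 9.33 in 2i+LIF, against 8.71 and 8.89 in LIF+serum. No methylation was measured in this series.

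Several targets and feedback genes of Nodal and BMP, ligands of the TGFβ family, stood lower. Of 24 genes, 5 were called lower and 1 higher. *Id1*, induced by BMP through SMAD1 and SMAD5, had 6.26 in 2i+LIF, against 9.91 and 9.32 in LIF+serum, and *Id2* had 6.64 in 2i+LIF, against 9.01 and 8.50 in LIF+serum. *Lefty1*, a feedback inhibitor of Nodal, had 7.25 in 2i+LIF, against 9.91 and 11.63 in LIF+serum. *Lefty2* had 6.38 in 2i+LIF, against 7.81 and 10.64 in LIF+serum, so the LIF+serum arrays were 2.83 apart, more than 2i+LIF was from array 1. *Fst*, follistatin, which sequesters activin, stood higher with 9.51 in 2i+LIF, against 5.61 and 5.25 in LIF+serum. In the LIF and STAT3 list of 19, *Klf4* and *Tfcp2l1* were called higher and *Gbx2* lower. *Socs3*, the feedback inhibitor that STAT3 induces, had 11.89 in 2i+LIF, against 11.19 and 10.42 in LIF+serum, above both but within 2-fold of array 1.

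Some neural genes stood lower. Of 16, 5 were called lower and none higher, 12 lay below both LIF+serum arrays, and 2 passed the fit over all 10 arrays as lower. *Pax6*, the neural and eye determination factor, had 3.71 in 2i+LIF, against 7.99 and 7.66 in LIF+serum, and 4 of its 5 probe sets lay below both. *Tubb3*, neuronal β-tubulin, had 7.18 in 2i+LIF, against 8.98 and 9.09 in LIF+serum. *Map2* had 3.33 in 2i+LIF, against 5.25 and 6.89 in LIF+serum. *Sox1*, the earliest neural plate marker, went the other way with 4.80 in 2i+LIF, against 4.26 and 4.10 in LIF+serum, within 2-fold and at a low signal in every sample. No gene of 17 mesendoderm genes was called. Of 23 primitive endoderm genes, *Fst*, *Srgn* and *Dab2* were called higher and *Lamb1* and *Sox7* lower (6 higher with each array centred on its median). With the mean over the probe sets of each gene, 4 were called higher and 0 lower. By position, 14 of the 23 lay above and 4 below both LIF+serum arrays, against 32.3% and 39.6% of all genes. *Gata4*, 1 of the defining members, had 4.96 in 2i+LIF, against 4.97 and 4.84 in LIF+serum. Of 19 trophectoderm genes only *Krt8* was called higher, with 10.24 in 2i+LIF, against 7.79 and 7.32 in LIF+serum, and the defining *Elf5* stood at 3.71 in 2i+LIF, against 3.99 and 3.22 in LIF+serum.

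Lists of markers of cells that a culture could carry had a median signal below that of all genes in each medium. Over all genes the median was 6.31 in 2i+LIF, against 6.36 and 6.35 in LIF+serum. For fibroblast feeders, *Col1a1* had 4.29 in 2i+LIF, against 4.47 and 4.15 in LIF+serum, and *Col3a1* had 2.83 in 2i+LIF, against 3.45 and 2.83 in LIF+serum. Of the 17 fibroblast genes, *Pdgfrb* was called higher and *Thy1* lower. Over the list the median signal was 4.29 in 2i+LIF, against 4.38 and 4.17 in LIF+serum, and the highest member was *Pdgfrb* at 7.26 in 2i+LIF and *Thy1* at 6.95 and 7.14 in LIF+serum. For blood and endothelium, *Ptprc* had 2.86 in 2i+LIF, against 2.76 and 3.32 in LIF+serum, and *Tal1* was the 1 of 12 genes called, being lower. The median signal of these 12 was 4.90 in 2i+LIF, against 5.62 and 5.77 in LIF+serum. The part of such cells in the other differences was not tested.

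Serum response and YAP targets, which include cytoskeletal genes, held 2 called higher and 4 lower of 33. *S100a10*, the annexin A2 ligand p11, had 8.21 in 2i+LIF, against 11.12 and 11.34 in LIF+serum, and *Lgals1*, galectin-1, had 9.51 in 2i+LIF, against 11.32 and 11.14 in LIF+serum. *Amotl2*, a YAP target and inhibitor, stood higher with 10.23 in 2i+LIF, against 8.82 and 8.43 in LIF+serum. Against LIF+serum array 1 alone 13 members were lower and 2 higher, and against array 2 alone 4 were lower and 4 higher. Of 25 collagen and basement membrane genes, *Lamb1* and *Col18a1* were called lower and none higher. *Col18a1*, the source of endostatin, had 7.28 in 2i+LIF, against 10.42 and 10.39 in LIF+serum. Among 22 adhesion genes, *Ocln* was called higher and *Cldn6* and *Esrp1* lower, and among 12 keratins and epithelial genes *Krt8* was higher and *Krt17* lower.

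**Figure D4:**
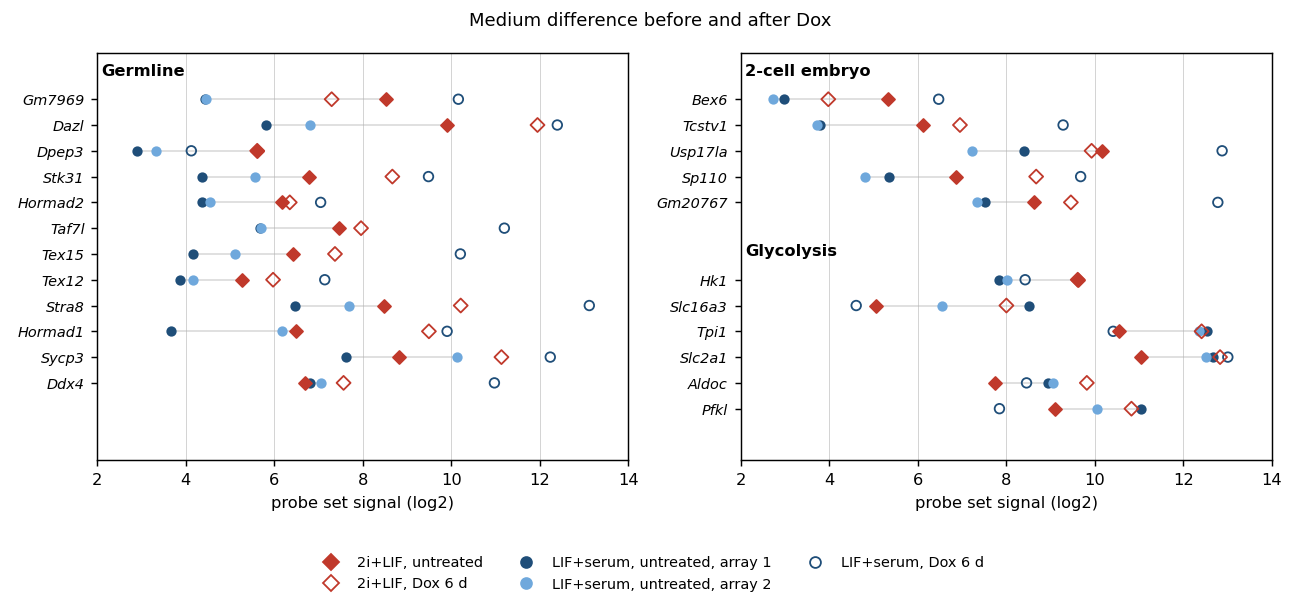
Probe set signal (log2) of named germline, 2-cell embryo and glycolysis genes. Red diamonds are 2i+LIF and blue circles LIF+serum, filled for untreated cells and open after 6 d of Dox. For most germline and 2-cell genes shown, the filled diamond lies right of the filled circles, while the open circle lies right of the open diamond.

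Several germ cell genes, the subject of the study, already stood higher in 2i+LIF before Dox. Of 39 germline genes, 8 were called higher and none lower, 25 lay above both LIF+serum arrays, and the median difference was 0.58. Against LIF+serum array 1 alone 14 were higher. *Dazl*, an RNA-binding protein required for germ cell development, had 9.91 in 2i+LIF, against 5.82 and 6.80 in LIF+serum. It was 17.0 and 8.61-fold higher, and both its probe sets lay above both arrays, but the adjusted p over all 10 arrays was 0.12. *Gm7969* had 8.51 in 2i+LIF, against 4.44 and 4.46 in LIF+serum. *Taf7l*, a germ cell TFIID subunit, had 7.47 in 2i+LIF, against 5.68 and 5.71 in LIF+serum, and *Tex15*, required for meiotic recombination in males, had 6.42 in 2i+LIF, against 4.16 and 5.11 in LIF+serum. *Dpep3*, *Stk31*, *Hormad2* and *Tex12* completed the 8. In the fit over all 10 arrays 5 germline genes passed as higher, *Gm7969*, *Dpep3*, *Hormad2*, *Brdt* and *Sohlh2*.

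Other germline genes were not called, among them *Stra8*, *Sycp3*, *Hormad1* and *Ddx4*. *Stra8*, required for meiotic entry, had 8.48 in 2i+LIF, against 6.47 and 7.68 in LIF+serum. *Sycp3*, an axis protein of meiotic chromosomes, had 8.82 in 2i+LIF, against 7.62 and 10.13 in LIF+serum. *Hormad1* had 6.48 in 2i+LIF, against 3.67 and 6.17 in LIF+serum. For all 3 the LIF+serum arrays were more than 2-fold from each other, array 2 being the higher. *Ddx4*, the germ cell helicase VASA, had 6.69 in 2i+LIF, against 6.81 and 7.05 in LIF+serum, and was not higher. Of 15 genes of primordial germ cells, *Tdrd7* was called higher and *Ifitm1* and *Lin28a* lower. *Dppa3*, also known as Stella, had 6.03 in 2i+LIF, against 7.82 and 6.86 in LIF+serum.

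Of 13 measured genes of the 2-cell embryo, 5 were called higher, none lower and 8 in neither direction, with a median difference of 1.19. In the fit over all 10 arrays 1 of the 13 passed. *Bex6* had 5.32 in 2i+LIF, against 2.97 and 2.72 in LIF+serum, and *Tcstv1* had 6.13 in 2i+LIF, against 3.79 and 3.73 in LIF+serum. *Usp17la*, a deubiquitinase of a multicopy family, had 10.17 in 2i+LIF, against 8.40 and 7.23 in LIF+serum. Since members of such families can share probe sequence, the signal may come from several copies. For *Sp110*, called higher at 6.87 in 2i+LIF, against 5.35 and 4.82 in LIF+serum, the mean over its probe sets was near 0. Of 20 retinoic acid genes, *Meis2* and *Rarb* were called higher and *Rara* and *Crabp2* lower. *Crabp2*, which carries retinoic acid to its receptor, had 4.87 in 2i+LIF, against 7.96 and 7.63 in LIF+serum. Of 27 *Hox* genes, *Hoxd9* alone was called, being higher.

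Of 13 genes of the MAX network, 3 stood lower in 2i+LIF, and *Max* itself was within 2-fold of both LIF+serum arrays. The *Max* probe set had 5.83 in 2i+LIF, against 5.58 and 5.73 in LIF+serum, and the sources do not say whether it reads the transgene. Besides *Myc* (above), *Mycn*, the more abundant MYC family member of ESCs, had 9.37 in 2i+LIF, against 10.96 and 10.76 in LIF+serum. *Mxd3*, which competes with MYC for MAX, had 5.59 in 2i+LIF, against 7.08 and 7.03 in LIF+serum. These were the 3 called lower, none being higher. Of 15 subunits and partners of PRC1.6, the Polycomb complex that holds MAX with MGA, *Ehmt1* was called lower. With each array centred on its median, and on the values as deposited, 0 of the 15 were called lower. Of 24 Polycomb genes *Bmi1* was called higher. *Bmi1* had 8.50 in 2i+LIF, against 5.76 and 6.84 in LIF+serum. Ribosome biogenesis genes, classical targets of MYC, held 3 called lower (*Nop10*, *Wdr12* and *Nolc1*) and none higher of 26, with a median difference of -0.38. With each array centred on its median these were 1 called lower and -0.05. *Nop10*, an H/ACA snoRNP protein, had 10.83 in 2i+LIF, against 12.29 and 12.40 in LIF+serum.

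Genes of the amino acid stress response, which ATF4 drives, had the highest list median together with 2-cell genes. Of 26 measured, 9 were called higher and none lower, 21 lay above both LIF+serum arrays, and the median difference was 1.19. *Ddit3*, the factor CHOP, had 10.30 in 2i+LIF, against 6.47 and 6.85 in LIF+serum. *Trib3*, a pseudokinase that CHOP induces, had 10.72 in 2i+LIF, against 8.35 and 8.63 in LIF+serum. *Asns*, asparagine synthetase, had 13.31 in 2i+LIF, against 11.09 and 11.70 in LIF+serum. The LIF+serum values of *Ddit3* and *Trib3* lay closer together than those of *Asns*. The list also separated the LIF+serum arrays, array 2 being higher by 0.85 at the median. Against array 1 alone 20 of the 26 were higher, against array 2 alone 10, and with each array centred on its median 13 were called. *Nupr1*, a small stress protein, showed this most plainly, with 10.67 in 2i+LIF, against 4.48 and 9.21 in LIF+serum. Of 18 p53 targets, 4 were called higher and none lower. *Cdkn1a*, the CDK inhibitor p21, had 10.66 in 2i+LIF, against 8.90 and 9.03 in LIF+serum (adjusted p = 0.00521 over all 10 arrays).

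Of 20 G1 genes, 3 cyclins were called lower, while the list had a median difference of 0.00. *Ccne1*, the E-type cyclin, had 8.36 in 2i+LIF, against 11.14 and 10.35 in LIF+serum, and *Ccnd2* had 5.12 in 2i+LIF, against 8.93 and 7.41 in LIF+serum, with all 7 probe sets below both. *Ccne1*, *Ccnd2*, *Ccnd1* and *Cdkn1c* were the 4 called lower, *Cdkn1a* being the 1 higher. No gene of 21 mitosis genes was called. Of 24 lysosomal genes, 5 were called higher and none lower, with 18 above both LIF+serum arrays and a median difference of 0.68. Called higher were 11 with each array centred on its median and 10 against LIF+serum array 1 alone. *Lgmn*, the asparaginyl endopeptidase, had 9.72 in 2i+LIF, against 7.08 and 7.60 in LIF+serum. *Ctsb*, cathepsin B, had 11.03 in 2i+LIF, against 9.38 and 9.64 in LIF+serum. *Psap*, *Ctsa* and *Grn* were the other 3.

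Of 18 glycolytic genes, 4 were called lower (*Slc16a3*, *Tpi1*, *Slc2a1* and *Aldoc*) and 1 higher (*Hk1*), with a median difference of -0.75. Against LIF+serum array 1 alone 7 were lower. *Slc2a1*, the glucose transporter GLUT1, had 11.05 in 2i+LIF, against 12.67 and 12.51 in LIF+serum, and *Tpi1* had 10.55 in 2i+LIF, against 12.52 and 12.34 in LIF+serum. *Hk1*, a hexokinase, had 9.61 in 2i+LIF, against 7.83 and 8.00 in LIF+serum. Of 20 hypoxia response genes, *Bnip3*, *Pdk1*, *Slc2a1* and *Ndrg1* were called lower and *Ddit4*, also an ATF4 target, higher. *Bnip3*, a mitophagy receptor that HIF1 induces, had 7.92 in 2i+LIF, against 10.53 and 10.48 in LIF+serum. None of 25 respiratory chain genes was called. Of 20 cholesterol synthesis genes, *Insig1*, *Idi1* and *Dhcr7* were called lower and none higher (1 lower with each array centred on its median), and of 17 fatty acid synthesis genes none was called. *Dhcr7*, the last enzyme of the pathway, had 6.59 in 2i+LIF, against 8.12 and 8.25 in LIF+serum.

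Imprinted genes held 5 called lower (*Cdkn1c*, *Mirg*, *Mest*, *Peg3* and *Phlda2*) and 1 higher (*Plagl1*) of 29. Against LIF+serum array 2 alone 9 were lower. *Phlda2*, a growth inhibitor of the placenta expressed from the maternal allele, had 8.30 in 2i+LIF, against 10.99 and 10.81 in LIF+serum. *Plagl1*, a zinc finger factor expressed from the paternal allele, had 7.42 in 2i+LIF, against 3.10 and 4.20 in LIF+serum, although 1 of its 3 probe sets lay below both. Of 16 antigen presentation genes, *B2m*, *Tapbp* and *H2-D1* were called higher and none lower. By position, 5 of the 16 lay above and 8 below both LIF+serum arrays. With the mean over the probe sets of each gene, 1 was called higher. *B2m*, the light chain of MHC class I, had 10.56 in 2i+LIF, against 8.28 and 8.90 in LIF+serum. Of 23 NRF2 and redox genes, *Gsto1* was called higher and *Nqo1* and *Gsr* lower. Of 17 iron and selenium genes, *Selenop* and *Selenoh* were called lower. *Selenop*, the plasma selenium carrier, had 4.67 in 2i+LIF, against 6.88 and 7.73 in LIF+serum.

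**Figure D5:**
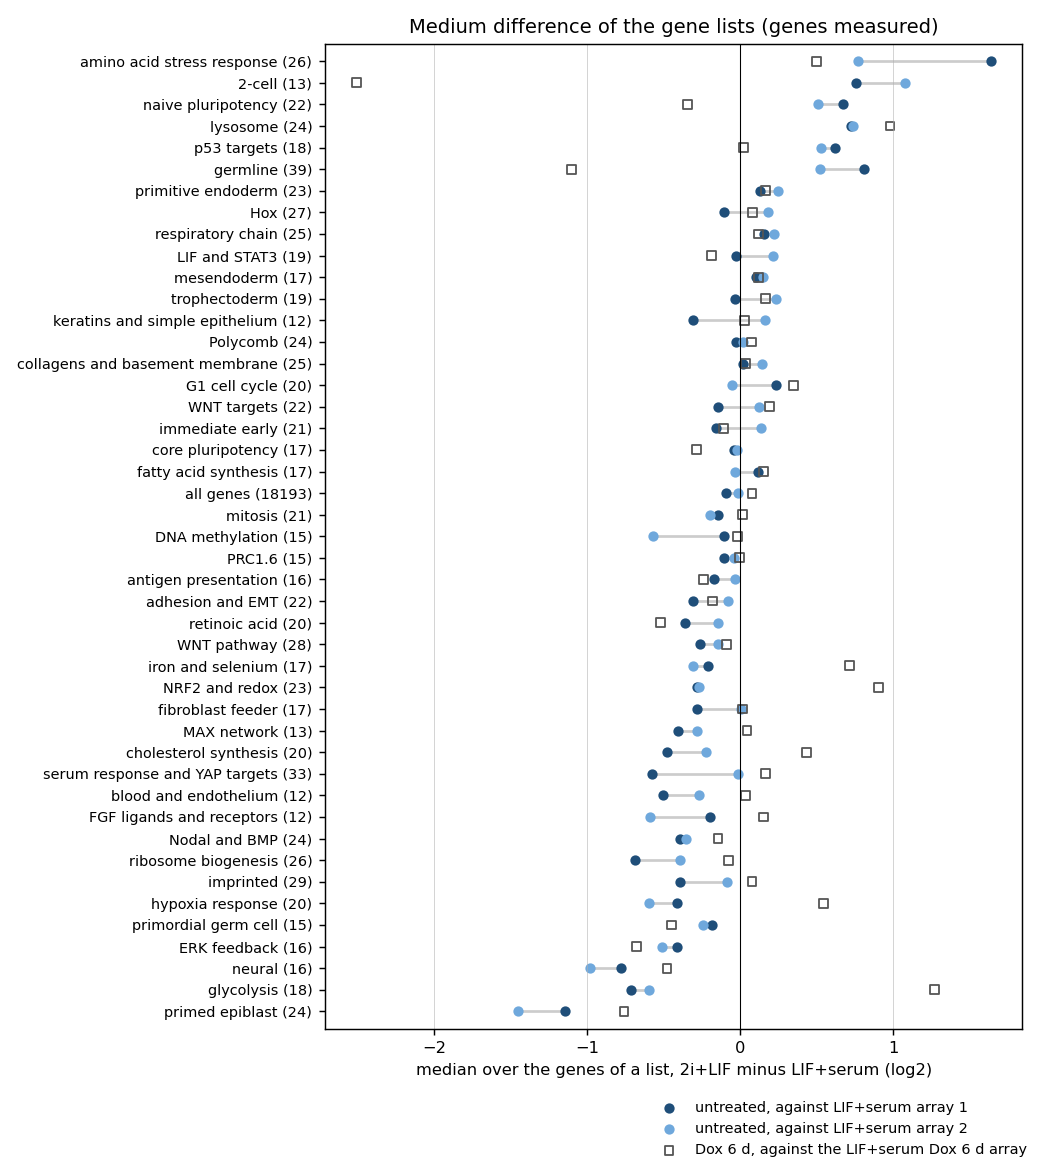
Median difference, 2i+LIF minus LIF+serum (log2), over the genes of each list, with the number measured in brackets. Circles are untreated cells against LIF+serum arrays 1 and 2 and open squares are the Dox 6 d arrays. The primed list lies farthest left in untreated cells, and the squares of the 2-cell and germline lists lie left of 0 while their circles lie right of it.

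A second pair of arrays, both from cells after 6 d of Dox, gave the same medium comparison once *Max* expression had been shut off. It shares no sample with the comparison above but the same split of array sets, and each arm is 1 array. The 3' minus 5' actin difference was 0.76 in 2i+LIF, against 1.46 in LIF+serum, and its part in the result was not tested. There, 1518 genes were at least 2-fold higher (8.34%) and 1650 at least 2-fold lower (9.07%) in 2i+LIF. Of the 607 genes called higher in untreated cells, 275 were also at least 2-fold higher after Dox, which is 45.3% of the untreated and 18.1% of the Dox list. Of the 560 called lower, 228 were also at least 2-fold lower, which is 40.7% of the untreated and 13.8% of the Dox list. By direction alone, 78.3% of the higher and 80.7% of the lower genes kept their side, where 54.6% of all genes were higher and 45.3% lower in 2i+LIF after Dox. *Pramel6* after Dox had 7.98 in 2i+LIF, against 3.48 in LIF+serum, *Fst* had 9.15 in 2i+LIF, against 5.50 in LIF+serum, and *Plagl1* had 9.09 in 2i+LIF, against 3.51 in LIF+serum. *Dnmt3a* after Dox had 6.18 in 2i+LIF, against 8.23 in LIF+serum, *Egr1* had 5.04 in 2i+LIF, against 8.56 in LIF+serum, and *Pax6* had 3.90 in 2i+LIF, against 7.84 in LIF+serum.

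Other groups were on opposite sides before and after Dox, and this difference was not tested. The median difference of germline genes was 0.58 in untreated cells and -1.10 after Dox, and that of 2-cell genes was 1.19 in untreated cells and -2.51 after Dox. *Stra8* after Dox had 10.21 in 2i+LIF, against 13.12 in LIF+serum, and *Taf7l* had 7.96 in 2i+LIF, against 11.20 in LIF+serum. *Dazl* was high in both, with 11.95 in 2i+LIF, against 12.39 in LIF+serum. Glycolysis had a median of -0.75 in untreated cells and 1.27 after Dox, and hypoxia response genes -0.44 and 0.54. The naive pluripotency list also changed side, with a median of 0.69 in untreated cells and -0.35 after Dox. Of its 22 genes, 3 were at least 2-fold higher and 2 at least 2-fold lower in 2i+LIF after Dox. *Dnmt3b* after Dox was 9.61 in each medium, and *Dnmt3l* had 11.80 in 2i+LIF, against 9.32 in LIF+serum. Of the genes called higher, 49 (8.07%) were at least 2-fold lower after Dox, and of those called lower, 20 (3.57%) were at least 2-fold higher, shares below the 9.07% and 8.34% of all genes.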

How the data were processed

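Total RNA was hybridized to Affymetrix mouse genome arrays. The authors corrected the background and normalized the arrays by RMA (robust multi-array average), and deposited log2 values. RMA and affy stand in the submitters' processing notes, with versions not given in the sources used here. Those sources also do not say which arrays were normalized together. RMA shrinks differences among weak signals, so folds near background are likely understated. For arrays, precision is limited by their number.

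Of 45101 probe sets, 64 controls were left out. Of the 45037 tested, the platform table gave 1 symbol to 34945, which stand for 18193 genes, several symbols to 932 and no entry to 9160. A gene is its brightest probe set over the 3 untreated arrays. All 10 arrays were quantile normalized together with limma 3.58.1 (R 4.3.3), and 2i+LIF was compared with LIF+serum by lmFit and eBayes on the untreated samples (1 residual and 4.57 prior degrees of freedom), with Benjamini-Hochberg adjustment over all probe sets. The fit over all 10 arrays held a slope per day of Dox, array set terms and a term for each 2i+LIF array (5 residual and 4.65 prior degrees of freedom). Its array sets were assumed, since no label gives them. They were LIF+serum untreated array 1 with Dox 1 to 4 d, and untreated array 2 with Dox 6 and 8 d. These terms divide LIF+serum arrays only, so the fit does not separate medium from the array set of the 2i+LIF arrays. Scripts were tested on simulated data. Tables and figures were made in Python 3.11.15 (numpy 2.4.6, pandas 2.3.3, matplotlib 3.10.9).

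The members and the 44 gene lists (883 names, 824 measured) were chosen with earlier results of these data known, so list counts are descriptions. Named genes were the 10 farthest from both LIF+serum arrays in each direction, the 6 members of each list farthest in this way, and defining members of signalling, pluripotency, methylation and germline lists. The rule asked for the 10 among genes that passed limma, and since none passed, the ranking was taken without that condition. Further genes named beyond this rule, to show values that were not called or to complete a count, were chosen after their values were seen. Promoter windows are those of RefSeq, GRCm38.p6. Alternatives changed the normalization, the filter, the fold, the fit and the probe set rule, and left out each LIF+serum array.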

Additional observations from a re-analysis of the deposited data

Results flagged for a closer look

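The medium difference of 20 of the 148 named genes called in untreated cells was at least 2-fold in the other direction between the Dox 6 d arrays. The difference between the untreated and the Dox comparison was not tested, since each 2i+LIF condition was 1 array. Of these, 12 were called higher in untreated 2i+LIF cells and stood lower in 2i+LIF after Dox, with these differences after Dox (2i+LIF minus LIF+serum, log2): *Atf5* -1.27, *Bex6* -2.49, *Gm20767* -3.32, *Gm7969* -2.86, *H2-D1* -1.21, *Rarb* -1.09, *Sp110* -1.0045, *Taf7l* -3.24, *Tcstv1* -2.33, *Tdrd7* -1.25, *Tex15* -2.83 and *Usp17la* -2.95. Germline and 2-cell embryo genes made up most of these, the named genes including the farthest members of each chosen list. The other 8 were called lower in untreated 2i+LIF cells and stood higher in 2i+LIF after Dox, with these differences after Dox: *Aldoc* 1.36, *Ccnd1* 1.93, *Dnmt3l* 2.48, *Mest* 1.23, *Ndrg1* 1.30, *Selenoh* 1.597, *Slc16a3* 3.39 and *Tpi1* 2.00. *Aldoc*, *Tpi1* and *Slc16a3* among them are glycolytic. Over all genes, 49 of the 607 called higher (8.07%) and 20 of the 560 called lower (3.57%) were at least 2-fold the other way after Dox.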

How the results depend on the processing

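With limma, 0 probe sets passed in either direction with the main settings, with the 3 untreated arrays normalized by themselves, with median centring and with percentile ranks. On the deposited values 41 passed as higher and 17 as lower in 2i+LIF, with only probe sets that reach 6 (log2) 46 and 20, with eBayes trend and robust 169 and 69, and over all 10 arrays 1561 and 1263. Without 1 LIF+serum array, and with the spread taken from the other arrays, the counts ranged from 1758 to 1784 higher and from 1358 to 1526 lower. The counts of probe sets at least 2-fold from both LIF+serum arrays, 1350 and 1044, were 3517 and 3467 at 1.5-fold and 453 and 269 at 3-fold. Against LIF+serum array 2 alone 2511 were higher and 2383 lower, and against array 1 alone 3706 and 2550. On the deposited values 1592 were lower, and 1886 were higher with median centring. In genes, median centring gave 911 higher, of which 583 were among the 607, and leaving out 1 LIF+serum array gave 972 and 1463 higher and 1052 and 1254 lower. Of the probe sets called, 1046 were also at least 2-fold apart in the same direction after Dox 6 d, and this count was 1369 with median centring, 1339 as deposited and 773 with only probe sets that reach 6 (log2). In alternatives chosen after seeing the data it was 2388 against array 2 alone, 1306 against array 1 alone, 1942 at 1.5-fold and 412 at 3-fold.

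The median difference over all genes was -0.05 with the main settings, -0.11 as deposited and 0.04 with median centring. Across these scalings 33 of 44 lists kept the sign of their median. Those that did not were immediate early, WNT targets, core pluripotency, mesendoderm, keratins, *Hox*, PRC1.6, fatty acid synthesis, mitosis, NRF2 and iron and selenium genes. Of 266 named genes under 7 alternatives (1862 values), 1 called value reversed, *Sp110* at 0.00 in the mean of its probe sets (-0.0041), and 373 moved by more than the spread of the LIF+serum arrays. The cause of these changes was not tested. Leaving out 1 LIF+serum array could by construction give neither outcome, since it shifts a value by less than that spread. A called gene also keeps its side of each LIF+serum array. The values of these alternatives are thus no test of how stable a gene was. No paired analysis was possible because there was 1 array in 2i+LIF, and no label links it to either of the 2 arrays in LIF+serum. The lone 2i+LIF array, its possible separate normalization and weak signals, which RMA compresses, limit what these counts can show.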
